A study of Mus musculus with 6 samples.

Results

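The genes described here encode proteins of the blood-testis barrier and of cell junctions, 44 of the 55414 genes in the deposited table. The rule that lists them names genes by function and sets no threshold on their values: 22 genes of the tight junction and its polarity complexes, 3 gap junction genes, 6 adherens junction genes, 5 desmosome genes and 8 genes of the ectoplasmic specialization, a testis-specific anchoring junction. They were measured by RNA sequencing in TM4, a mouse testis line that stands in for Sertoli cells in culture. Control cells gave 3 libraries, and so did cells titled VC. The agent is uncertain: the series title speaks of vitamin C, whereas valine is named in the sample characteristics and in the design text, and the neutral title VC is kept here. No dose or exposure time is recorded. Separate cultures are not stated either, so the p-values reflect variation among these libraries, possibly of technical origin.

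Sertoli cells line the seminiferous tubule and seal it with junctions near its base, behind which meiosis proceeds. In the testis this seal combines claudin and occludin strands with basal ectoplasmic specializations, gap junctions and desmosome-like contacts. Claudin 11 is the main claudin of Sertoli strands, and male mice without it are sterile. Cytoplasmic scaffolds such as ZO-1 tie the strands to actin, catenins do the same for cadherins, and the ectoplasmic specialization adds bundled actin held by nectins, afadin and integrins.

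Depth, as whole reads recovered from the table, was 20408425 to 22316857 per library. The deposited value is a transcripts-per-million-like level, corrected for gene length, so levels can be compared between genes. The expression filter asked for a value of at least 1 in 3 libraries and left 13972 genes. Of these, limma called 96 (0.687%) at an adjusted p under 0.05, 0.429% higher and 0.258% lower in VC. Control replicate 3 stood apart from the other libraries, with a chi-square per degree of freedom of 9.97 to 18 against each of them, compared with 2.84 to 7.57 for pairs without it. Of the 22 Sertoli markers listed, 9 passed the expression filter, and the defining genes Wt1, Fshr and Dmrt1 were listed at 0 in every library. Sox9, a transcription factor of Sertoli differentiation, was at 3.01 ± 0.239 (SD, n = 3) in control, so the label of a Sertoli cell was met by only some of that cell type's markers.

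TM4 cells expressed some of the genes listed for each junction. Of the 44 genes, 25 passed the expression filter: 9 of 22 tight junction genes, 2 of 3 gap junction genes, 5 of 6 adherens junction genes, 2 of 5 desmosome genes and 7 of 8 ectoplasmic specialization genes. The 19 genes below the filter reached at most 0.39 in any library, and 6 of them (Cldn1, Cldn4, Cldn5, Dsg2, Dsc2 and Espn) were listed at 0 in all 6. The lowest mean among the genes that passed was 1.32, for Cdh3.

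**Figure D1:**
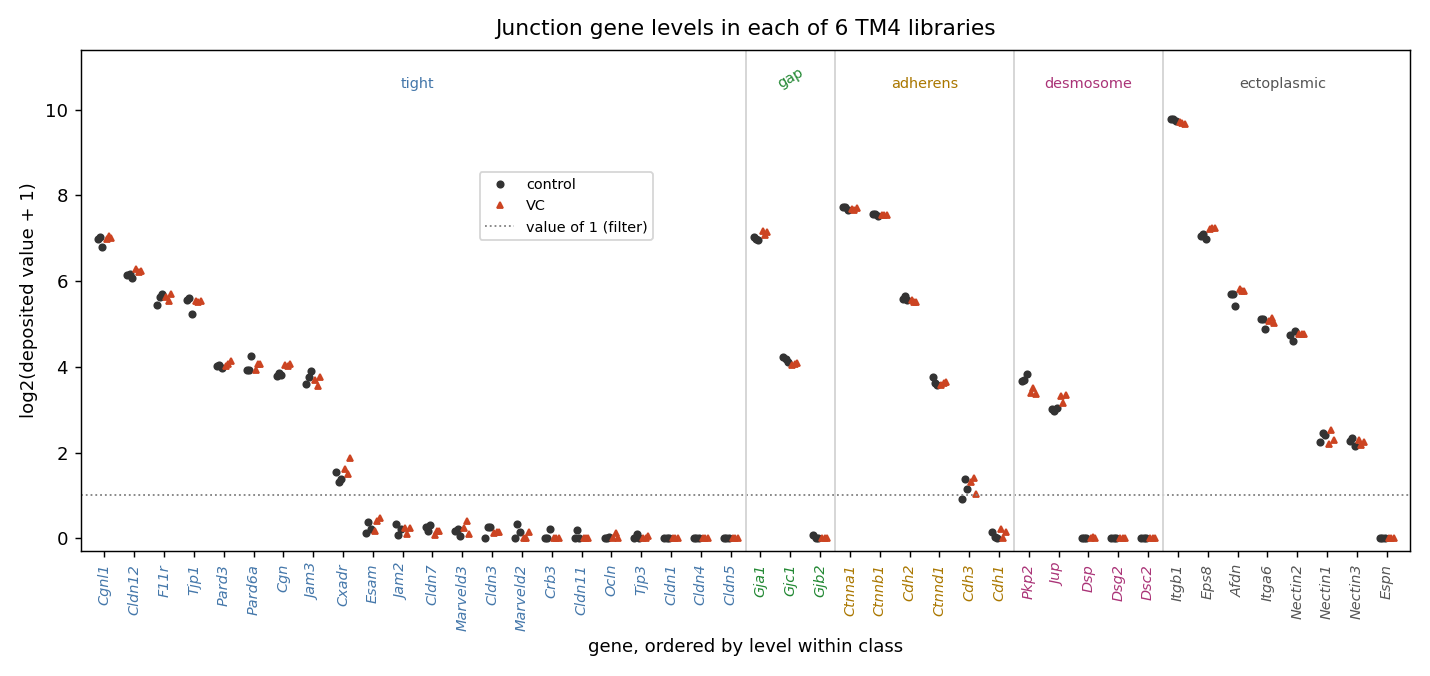
Level of each of the 44 junction genes in each library, as log2(deposited value + 1) on the vertical axis, with genes on the horizontal axis ordered by level within class. Circles are the 3 control and triangles the 3 VC libraries, and the dotted line marks a value of 1. The 19 genes below the filter lie at or under a value of 0.39, and the 2 groups lie close together for every gene.

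No junction gene differed between VC and control at limma's threshold over all genes. The count was 0 of 25, beside 0.687% of all genes tested, and the lowest adjusted p was 0.093. At an unadjusted p under 0.05 there were 7 of 25 (28%), where 17.2% of all genes tested passed. Of the 7, 5 were higher in VC (9.05% of all genes) and 2 lower (8.2% of all genes). The fold change was above 0 for 14 of 25, beside 53.7% of all genes. In 10 of 25 genes (40%) the groups did not overlap, beside 25.6% of all genes tested. The median log2 fold change (VC relative to control, on log2(value + 1), as throughout) was 0.037 for these genes and 0.012 for all genes tested. Over all genes this median was higher in longer genes, from -0.038 in the shortest of 4 bins of exon length through -0.013 and 0.015 to 0.054 in the longest, which holds 13 of the 25 junction genes. Applied to the recovered reads, limma-voom called 3 of the 25 (Cgn, Eps8 and Pkp2), beside 3.98% of 13772 genes tested. In these bulk libraries fewer cells with a transcript and less of it per cell cannot be told apart.

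**Figure D2:**
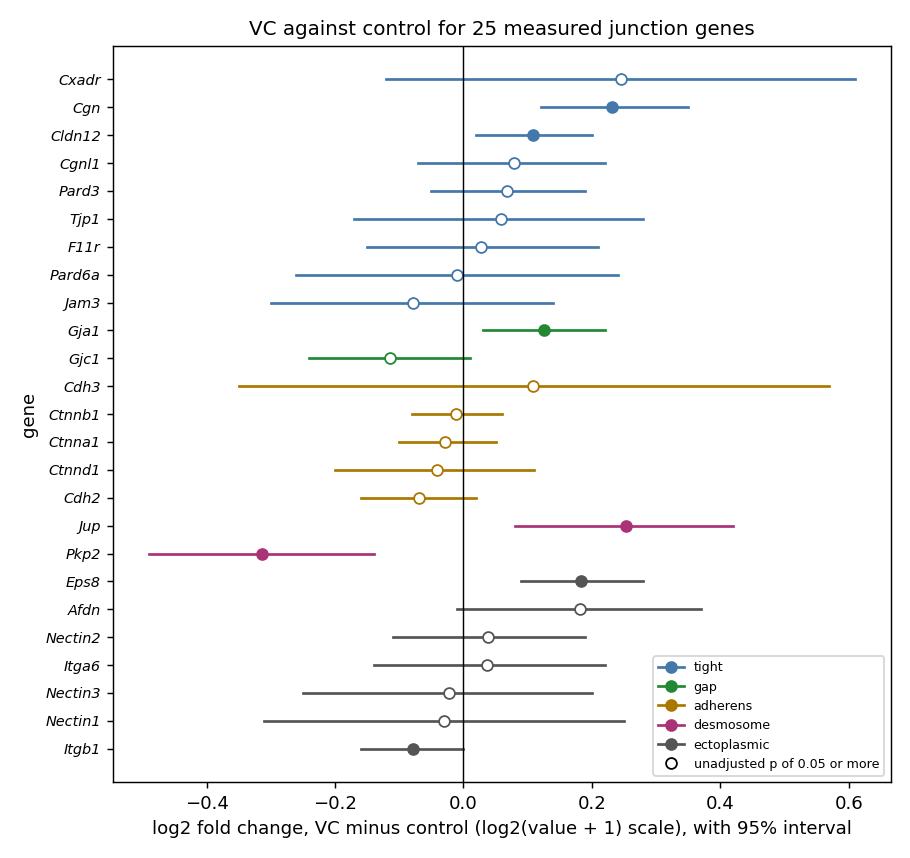
Log2 fold change of VC relative to control, from log2(value + 1), on the horizontal axis for the 25 genes that passed the filter (vertical axis), with the 95% interval from limma as a line and junction class as colour. Filled points have an unadjusted p under 0.05. Pkp2 has the lowest fold change at -0.31 and Jup and Cxadr the highest at 0.25, and no gene passed the adjusted threshold.

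Among the genes for strand proteins of the tight junction, Cldn12, which encodes claudin 12, had the highest claudin level. Cldn12, an unusual claudin without the common PDZ-binding end, was at 69.0, 70.7 and 66.7 in the controls and 76.3, 72.6 and 73.9 in VC. The VC values all lay above the control values, with a log2 fold change of 0.11 (adjusted p = 0.227 by limma, SE 0.0384). It made up 92.8% to 95.4% of the summed level of the 32 claudins in the table. Of the other claudins only Cldn34c2 and Cldn20, named after their values were seen, passed the filter, and Cldn20 rested on 1 to 9 reads per library. Cldn11 was listed at 0.135 in control replicate 2, which is 2 reads, and at 0 in the other 5 libraries. In a library at 0, the limit that a count of 0 allows (3 reads) corresponds to a value of 0.193 to 0.208, a limit that covers counting error only. Cldn3, an early Sertoli claudin of the forming barrier, reached 0.2 and Cldn7 reached 0.247, on at most 2 and 4 reads.

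Genes for the other membrane proteins of the strand showed the same division. Ocln, which encodes the strand protein occludin, was listed at 0.029 in control replicate 3 and 0.092 in VC replicate 2 (1 and 3 reads) and at 0 in the remaining 4 libraries. Its relatives Marveld2 (tricellulin, found at corners between cells) and Marveld3 reached 0.26 and 0.316. F11r, which encodes the immunoglobulin-like adhesion protein JAM-A, was expressed, at 42.6, 48.5 and 51.0 in control and 48.6, 45.3 and 50.8 in VC. The groups overlapped, with a log2 fold change of 0.03 (95% interval -0.15 to 0.21). Jam3, which encodes JAM-C, was at 12.5 ± 1.45 in control and 11.8 ± 0.884 in VC (SD, n = 3 each). As 36.2% of its exon length is shared with the annotated gene Gm48796, which was at 1.09 to 1.41, the split of reads between them is uncertain. Jam2 and Esam, adhesion proteins best known from endothelium, reached at most 0.256 and 0.39. Cxadr, the coxsackievirus and adenovirus receptor, was low, at 1.66 ± 0.228 and 2.17 ± 0.446, with a log2 fold change of 0.25 (95% interval -0.12 to 0.61), or 0.136 without VC replicate 3. Its level is uncertain, since 9.46% of its exon length is shared with other annotated genes, among them Btg3 at 24.4 to 33.7.

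Of the genes for scaffolds under the strands, Cgnl1, Tjp1 and Cgn passed the filter and Tjp3 did not. Only Cgnl1 exceeded Cldn12 and F11r in mean level. Cgnl1, which encodes paracingulin, a link to the cytoskeleton, had the highest level of the tight junction genes, with 125, 129.7 and 111 in control and 126, 131 and 128 in VC. Only control replicate 3 was below the rest, and the log2 fold change was 0.08 (adjusted p = 0.547 by limma, SE 0.0608), or 0.011 without that library. Its paralog Cgn, cingulin, was lower, at 12.7, 13.5 and 13.0 in control and 15.6, 15.2 and 15.7 in VC. The groups did not overlap, the means differed by 18.7%, and the log2 fold change of 0.23 (SE 0.049) had a limma adjusted p of 0.093. Tjp1, which encodes the scaffold ZO-1, was at 46.2, 47.8 and 36.7 in control and 45.4, 44.4 and 45.6 in VC. Control replicates 1 and 2 lay above every VC library and control replicate 3 below, so the log2 fold change of 0.06 (95% interval -0.17 to 0.28) became -0.057 without control replicate 3. Tjp3, which encodes ZO-3, was listed at 0.068 or less.

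Of the polarity genes, Pard3 and Pard6a were expressed and Crb3 was not. The PAR complex they belong to marks the apical side of epithelial cells. Pard3 was at 15.1 ± 0.395 in control and 15.9 ± 0.642 in VC, and Pard6a at 15.5 ± 2.37 and 15.3 ± 0.942 (SD, n = 3 each), both with overlapping groups. The Crumbs gene Crb3 was seen in control replicate 3 alone, on 2 reads. Over the 9 tight junction genes that passed the filter the median log2 fold change was 0.068, beside 0.012 for all genes tested, with 2 of the 9 (22.2%) at an unadjusted p under 0.05, both higher in VC, beside 17.2% of all genes in either direction and 9.05% higher.

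The near-absence of Cldn11 and Ocln transcripts can be set beside the sequence before their start sites. The windows below are the 250 bases before the furthest upstream RefSeq start (build GRCm38.p6, not the build of the alignment), shown because these 4 tight junction genes span the range from near 0 to the lead claudin and to the tight junction gene with the lowest adjusted p. Capitals mark the GC box GGGCGG or its reverse complement CCGCCC, searched on both strands with overlaps allowed. The Cldn11 window is chr3:31149670-31149919, plus strand, the Ocln window chr13:100552719-100552968, minus strand, the Cldn12 window chr5:5514977-5515226, minus strand, and the Cgn window chr3:94786483-94786732, minus strand. Each is written 5′ to 3′ on the gene's strand.
Cldn11: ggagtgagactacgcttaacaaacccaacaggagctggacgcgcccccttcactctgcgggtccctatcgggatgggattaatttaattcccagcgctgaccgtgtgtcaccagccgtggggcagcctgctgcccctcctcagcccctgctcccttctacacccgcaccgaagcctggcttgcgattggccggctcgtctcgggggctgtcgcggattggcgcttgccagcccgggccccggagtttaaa
Ocln: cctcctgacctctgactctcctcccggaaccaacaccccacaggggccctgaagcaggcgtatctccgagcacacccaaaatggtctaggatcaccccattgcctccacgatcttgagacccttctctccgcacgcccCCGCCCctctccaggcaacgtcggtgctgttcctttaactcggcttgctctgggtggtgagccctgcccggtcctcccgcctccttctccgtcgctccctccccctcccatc
Cldn12: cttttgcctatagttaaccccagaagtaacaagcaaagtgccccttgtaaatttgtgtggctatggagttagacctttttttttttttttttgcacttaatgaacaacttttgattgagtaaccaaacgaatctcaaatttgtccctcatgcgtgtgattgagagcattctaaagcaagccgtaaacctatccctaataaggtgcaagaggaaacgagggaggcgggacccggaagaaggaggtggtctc
Cgn: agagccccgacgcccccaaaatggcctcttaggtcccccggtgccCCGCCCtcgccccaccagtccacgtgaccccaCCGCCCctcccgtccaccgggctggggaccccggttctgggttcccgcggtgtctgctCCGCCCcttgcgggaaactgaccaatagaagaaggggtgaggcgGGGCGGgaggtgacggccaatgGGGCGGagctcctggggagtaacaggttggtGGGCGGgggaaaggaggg

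The 2 genes near 0 had more CpG dinucleotides before the start than the lead claudin. The Cldn11 window held 19 CpG dinucleotides and the Ocln window 14, against 6 for Cldn12 and 19 for Cgn. Cgn alone of the 4 carried several GC boxes, 6 in all, while Ocln had 1 and Cldn11 and Cldn12 had 0. A GC box was present in 33% of all 27025 gene windows of this length. Among junction genes with a window, 80% of those that passed the filter and 76.9% of those below it had a GC box. Among genes of the deposited table with a window, these shares were 60.6% of 9000 and 22.6% of 11519. RefSeq windows matched 28 of the 44 junction genes: the 15 that passed the filter had a median of 20 CpG dinucleotides (range 6 to 51), and the 13 below it a median of 12 (range 2 to 22). Among genes of the deposited table with a window, the medians were 16 for those that passed the filter and 3 for those below it. These are descriptions of the reference sequence, and which start TM4 cells use was not measured.

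Of the gap junction genes, Gja1, which encodes connexin 43, was dominant in transcript level. Gap junctions pass ions and small molecules between cells, and connexin 43 is the main connexin between Sertoli cells. Gja1 was at 131, 126 and 124 in control and 142, 134 and 139.8 in VC. All VC values lay above all control values, by 9.22% in the mean, with a log2 fold change of 0.13 (adjusted p = 0.176 by limma, SE 0.0384). Gja1 made up 83.9% to 87.3% of the summed level of the 20 connexins in the table. Gjc1, which encodes connexin 45, was at 17.8, 17.3 and 16.4 in control and 15.3, 15.8 and 16.1 in VC. These groups did not overlap either, in the opposite direction, with a log2 fold change of -0.12 (95% interval -0.24 to 0.01, limma adjusted p = 0.309). Gjb2, which encodes connexin 26, was represented by 1 read in control replicate 1. With 1 gene of the pair higher and 1 lower, the class median was 0.005.

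Of the 3 adherens junction cadherins, Cdh2 had the highest level, but it made up only 23.1% to 25.1% of the summed level of the 23 cadherins numbered Cdh in the table. Cdh11, a mesenchymal cadherin named after its values were seen, was higher in each library, at 118 to 133. Classical cadherins bind the same cadherin on the neighbouring cell, and N-cadherin is the main one of Sertoli cells. Cdh2, which encodes N-cadherin, was at 47.2, 49.0 and 46.1 in control and 45.9, 44.7 and 44.9 in VC. The groups just failed to overlap, with a log2 fold change of -0.07 (95% interval -0.16 to 0.02, limma adjusted p = 0.402). Cdh1, which encodes E-cadherin, was listed at 0.113, 0.027 and 0 in control and 0.16, 0 and 0.109 in VC, on at most 6 reads. Cdh3, which encodes P-cadherin, was just above the filter at 1.23 ± 0.362 in control and 1.4 ± 0.316 in VC.

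The catenins that carry cadherins to actin were among the more abundant transcripts. Ctnna1, which encodes αE-catenin, was at 209.9, 212 and 202 in control and 203, 202 and 206 in VC, above 95.2% of all genes tested. Ctnnb1, which encodes β-catenin, was at 187 ± 3.15 and 186 ± 0.966 (SD, n = 3 each). For both the groups overlapped, and the 95% intervals of the log2 fold change ran from -0.10 to 0.05 and from -0.08 to 0.06. Ctnnd1, which encodes p120-catenin and holds cadherins at the surface, was lower at 11.6 ± 0.80 and 11.2 ± 0.313. Its level is uncertain, because 61.2% of its exon length is shared with the annotated gene Gm28635, which was listed at 0. Likewise 15.1% of the exon length of Ctnnb1 is shared with Mir7090 and Ulk4, of which Ulk4 was at 3.45 to 4.38. None of the 5 adherens junction genes that passed the filter had an unadjusted p under 0.05, beside 17.2% of all genes tested (limma adjusted p from 0.402 to 0.885). Their median log2 fold change was -0.028, beside 0.012 for all genes tested.

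Of the desmosome genes listed, only those for armadillo-family plaque proteins passed the filter. Desmosomes join cells through desmogleins and desmocollins, which plakoglobin and plakophilins couple to desmoplakin and so to intermediate filaments. Dsg2 and Dsc2 were listed at 0 in all libraries, and none of the 9 desmogleins and desmocollins in the table passed the filter. Dsp, which encodes desmoplakin, reached 0.027, or 2 reads. Pkp2, plakophilin 2, was at 11.7, 12.0 and 13.3 in control and 9.46, 10.4 and 9.31 in VC. Every VC library was below every control library, a change in the mean of -21.1%, with a log2 fold change of -0.31 (adjusted p = 0.111 by limma, SE 0.0731). Pkp2 made up only 12% to 16.9% of the summed level of the 4 plakophilins in the table. Pkp4, named after its values were seen, had the highest level of them. Jup, which encodes plakoglobin and also serves in adherens junctions, was at 7.14, 6.88 and 7.22 in control and 8.92, 7.94 and 9.07 in VC. Here every VC library was above every control library, by 22.1% in the mean, with a log2 fold change of 0.25 (adjusted p = 0.154 by limma, SE 0.0717). Pkp2 and Jup thus had fold changes of opposite sign, and the class median was -0.030.

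**Figure D3:**
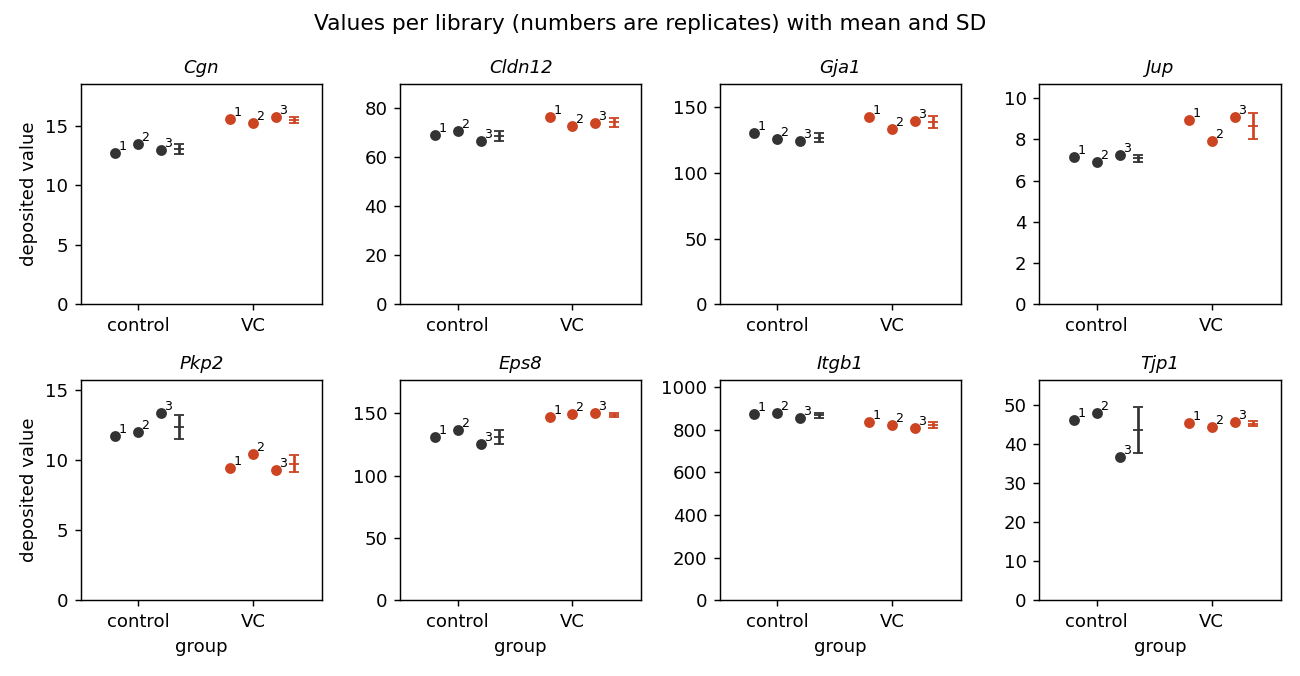
Deposited values (vertical axes, from 0) in each control and VC library for 8 junction genes, with the replicate number beside each point and the mean and SD beside each group. In Cgn, Cldn12, Gja1, Jup and Eps8 all VC points lie above all control points, in Pkp2 and Itgb1 all lie below, and in Tjp1 control replicate 3 at 36.7 is the one low point.

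Of the genes listed for the ectoplasmic specialization, all but Espn passed the filter, and whether the junction itself forms was not measured. Itgb1, the β1 integrin subunit, was the most abundant of the 44 genes, at 872, 876 and 853 in control and 836, 821 and 806 in VC. The VC values all lay below the control values, a change in the mean of -5.31%, with a log2 fold change of -0.08 (adjusted p = 0.28 by limma, SE 0.0324). Its partner Itga6, the α6 subunit, was at 33.8, 33.6 and 28.3 in control and 32.6, 34.1 and 31.4 in VC. Only control replicate 3 was apart, and the log2 fold change of 0.04 (95% interval -0.14 to 0.22) became -0.044 without it. Eps8, an actin capping and bundling protein, was at 131, 137 and 125 in control and 147, 149.7 and 150.01 in VC. Every VC library was above every control library, by 13.5% in the mean, with a log2 fold change of 0.18 (adjusted p = 0.096 by limma, SE 0.0394). Espn, which encodes espin, the actin-bundling protein typical of this junction in the testis, was listed at 0 in all 6 libraries. For Espn the limit that a count of 0 allows corresponds to a value of 0.0437 to 0.0471 per library.

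Afdn, which encodes afadin, the actin-binding partner of nectins, was at 51.2, 50.5 and 41.6 in control and 55.2, 53.1 and 53.9 in VC. The groups did not overlap, and the log2 fold change of 0.18 (adjusted p = 0.307 by limma, SE 0.0798) became 0.086 without control replicate 3, a change of over 1.5 times. Nectins are the immunoglobulin-like receptors of this junction, with nectin 2 on the Sertoli side and nectin 3 on the spermatid side. Nectin2 was at 25.6 ± 2.18 in control and 26.3 ± 0.103 in VC, Nectin1 at 4.18 ± 0.415 and 4.08 ± 0.607, and Nectin3 at 3.79 ± 0.31 and 3.72 ± 0.176 (SD, n = 3 each). In all 3 the groups overlapped, and Nectin2 made up 72.4% to 78% of the summed level of the 4 nectins. Of the 7 ectoplasmic specialization genes that passed the filter, 1 was higher and 1 lower in VC at an unadjusted p under 0.05. That is 28.6%, beside 17.2% of all genes tested. The median log2 fold change was 0.037, beside 0.012 for all genes tested.

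Several of the differences between junction genes and groups ran through control replicate 3. Relative to the mean of control replicates 1 and 2 on the log2(value + 1) scale, the difference of this library was -0.35 for Tjp1, -0.28 for Afdn, -0.24 for Itga6 and -0.20 for Cgnl1. It was 0.35 for Pard6a, 0.23 for Jam3, 0.17 for Nectin2 and 0.16 for F11r and Pkp2. All 4 of the low genes have exon lengths of 6099 bases or more, the longest of 4 equal bins of tested genes, where the median difference over all genes was -0.098, against 0.093 in the shortest bin. Of the 25 junction genes 13 are in that longest bin, with a median difference of -0.09. The part of exon length in the group differences was not tested. Without control replicate 3, the log2 fold change was 0.226 for Cgn, 0.152 for Eps8, -0.261 for Pkp2, 0.266 for Jup and 0.11 for Gja1, each within 1.5 times of the value with it.

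**Figure D4:**
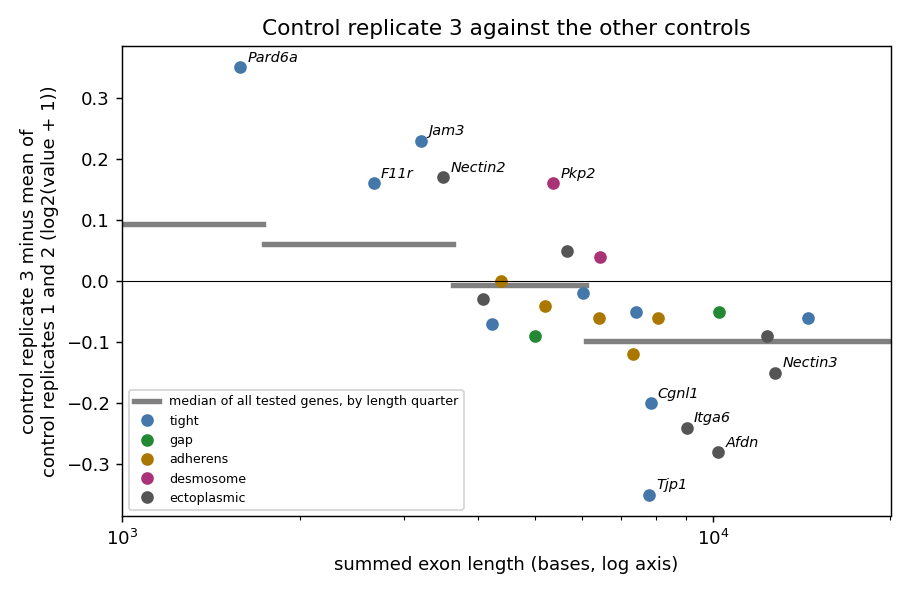
Difference of control replicate 3 from the mean of control replicates 1 and 2 in log2(value + 1) (vertical axis) against summed exon length in bases (horizontal log axis) for the 25 junction genes that passed the filter, coloured by class. Grey lines give the median of all tested genes in each of 4 length bins, falling to -0.098 in the longest bin, and Tjp1 at -0.35 and Pard6a at 0.35 are the extremes.

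Other genes of the same junctions, from a list of 139 names of which 137 were in the table, were fitted in the same way. Of the 63 that passed the filter limma called 0 over all genes, and at an unadjusted p under 0.05 there were 13 (20.6%, beside 17.2% of all genes tested), 4 higher and 9 lower in VC. Their median log2 fold change was 0.004. Among further tight junction genes, 19 of 45 passed. Ybx3, the ZO-1-associated Y-box protein ZONAB, went from 356 ± 15.2 to 309 ± 9.61 (log2 fold change -0.20, limma adjusted p = 0.0929), the polarity protein gene Pard6g from 4.54 ± 0.447 to 3.42 ± 0.426 (-0.33, adjusted p = 0.22), and the GTPase gene Cdc42 from 356 ± 9.90 to 335 ± 7.27 (-0.09, adjusted p = 0.281). Of 20 further gap junction genes 3 passed, none with an unadjusted p under 0.05 (lowest limma adjusted p = 0.551), and their median log2 fold change was -0.178. Only the keratin gene Krt8, at 1.08 ± 0.582, passed among 15 further desmosome genes.

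Among 22 further adherens junction genes 12 passed. The most abundant were the α-actinin genes Actn4, at 351 ± 14.2 in control and 336 ± 7.0 in VC, and Actn1, at 225 ± 5.44 and 203 ± 2.12 (log2 fold change -0.15, limma adjusted p = 0.0973). Pvr, a nectin-like receptor, was at 55.0 ± 1.24 and 61.4 ± 0.525 (0.16, adjusted p = 0.101).

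Of 35 further ectoplasmic specialization genes 28 passed, with 7 (25%) at an unadjusted p under 0.05, 3 higher and 4 lower, beside 17.2% of all genes tested. Palld, which encodes the actin-binding protein palladin, went from 66.5 ± 1.13 to 57.3 ± 1.54 (log2 fold change -0.21, limma adjusted p = 0.0603), and Pxn, which encodes the adaptor paxillin, from 34.9 ± 0.531 to 39.2 ± 0.711 (0.16, adjusted p = 0.102). The most abundant were Flna, filamin A, at 689 ± 66.2 in control, and the tetraspanin gene Cd9, at 276 ± 17.5. Of 6 contractile genes used as markers of peritubular myoid cells, 4 passed the filter. Acta2 and Actg2 fell past limma's threshold, beside 0.258% of all genes called lower. Cnn1 was also lower in every VC library (limma adjusted p = 0.0672), whereas the groups overlapped for Tagln (adjusted p = 0.36). Des was below the filter, at 0.604 ± 0.369 in control and 0.725 ± 0.126 in VC, and Myh11 was at or near 0. The summed level of the 6 was 726 to 803 in control and 473 to 494 in VC, most of it Acta2 (613 ± 29.3 and 382 ± 4.39). The part of these contractile genes in the values of actin-linked junction genes was not tested.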

How the data were processed

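RNA from TM4 cells was extracted with Trizol and sequenced from TruSeq libraries, per the labels' protocols; whether strand was kept is not stated. Reads were aligned with HISAT2 to GRCm39, per the submitters' processing notes; how reads were counted is not given in the sources used here. In 1 table the authors deposited a TPM-like signal per gene with 1 scaling factor per library (TMM, by the table's name), with totals of 966031 to 1058206. Symbols and exon lengths came from GENCODE M21 (GRCm38; 52081 and 52133 of 55414 identifiers), so no gene coordinates of the files' build are given.

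Values multiplied by exon length came out whole, to within 0.1 read, in 98.74% to 98.89% of cases up to 1000 reads. They served for depth, limits at 0 and limma-voom. The main test was limma 3.58.1 (R 4.3.3) on log2(value + 1) with a prior trend, two-sided, Benjamini-Hochberg adjusted over genes whose value reached 1 in at least 3 libraries, threshold 0.05. No covariate was used. The procedure was also run on simulated counts, drawn with the same spread setting for every gene and no library set apart. Such a run cannot show how the procedure behaves with a library like control replicate 3. Alternatives changed the pseudocount, filter, scaling, prior, weights, replicate block and libraries. Tables used Python 3.11.15 with pandas 2.3.3, figures matplotlib 3.10.9.

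Members and lists were chosen with earlier results of these data known. Named with values in every library were the most abundant member of each class, members with separated groups and an unadjusted p under 0.05, and 8 set genes (Cldn11, Cldn12, Ocln, Tjp1, Gja1, Cdh1, Cdh2 and Itga6); F11r, Afdn and Gjc1 were added after their values were seen. From the further junction genes, those past the threshold and the 2 most abundant and the 2 with the lowest p of each class were named, except for some that are not reported here.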

Additional observations from a re-analysis of the deposited data

How the results depend on the processing

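Limma-voom on recovered reads called 3 junction genes and the other 15 alternatives called 0, of which 6 called at most 1 of all genes and so say nothing about stability. Among 396 single-gene values under the alternatives 367 kept direction and call, 3 passed the threshold (limma-voom: Cgn 0.247, Pkp2 -0.344 and Eps8 0.184) and 26 changed sign, in 13 genes, none of them called.

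The number of all genes called was 96, with 30 when unfiltered, 183 with a minimum value of 5, 217 with equal totals, 6 without a prior trend, 254 with library weights, 548 by limma-voom and 0 to 82 when 1 library was left out. Without control replicates 1 and 2 it was 1 and 0, without VC replicates 1, 2 and 3 it was 0, 0 and 1, and 82 without control replicate 3. With the replicate block it was 0, where 5 junction genes had an unadjusted p under 0.05. Same-numbered samples did not deviate together (correlations -0.019 to 0.005). The labels do not say whether the numbers pair the samples, and these correlations cannot settle it. The number of junction genes at an unadjusted p under 0.05 was 7, with 4 without VC replicate 1 and 10 without control replicate 3.

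With equal totals the all-gene median log2 fold change went from 0.012 to 0.078, and that of the junction genes to 0.107 (tight 0.136, gap 0.075, adherens 0.044, desmosome 0.035, ectoplasmic 0.107). Unfiltered, the medians were 0.004 (all junction genes), 0.028 (tight) and 0.019 (desmosome). Quantile normalization gave 0.028 (adherens) and -0.071 (desmosome), and library weights -0.015 (ectoplasmic). Leaving out 1 library gave 0.008 to 0.047 (all junction genes), 0.051 to 0.125 (tight), -0.018 to 0.028 (gap), -0.049 to -0.007 (adherens), -0.048 to 0.003 (desmosome) and -0.013 to 0.044 (ectoplasmic, lowest without control replicate 3). The cause was not tested.

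Sign changes with equal totals were Pard6a 0.058, Cdh2 0.001, Ctnna1 0.044, Ctnnb1 0.061, Ctnnd1 0.025, Nectin1 0.028 and Nectin3 0.035. Quantile normalization gave Ctnna1 0.028, Ctnnb1 0.031 and Itgb1 0.012, and library weights Tjp1 -0.016, Pard6a 0.064 and Itga6 -0.015. Leaving out 1 library gave ranges that crossed 0 for Tjp1 (-0.057 to 0.129), F11r (-0.045 to 0.083), Pard6a (-0.069 to 0.105), Cdh3 (-0.007 to 0.227), Ctnnd1 (-0.081 to 0.008), Nectin1 (-0.125 to 0.037), Nectin2 (-0.023 to 0.095), Nectin3 (-0.071 to 0.022) and Itga6 (-0.044 to 0.079). Genes below the filter rest on at most 12 reads per library, and differences between groups were not tested for them.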

Other observations

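Transcripts that mark epithelial and mesenchymal cells were unequally represented in the same libraries. Of 11 epithelial markers 1 passed the filter, Krt8, and Epcam, Esrp1 and Ovol2 were listed at 0 in all 6 libraries. Of 14 mesenchymal markers 13 passed, among them Vim at 1273 ± 49.6, Fn1 at 930 ± 129 and Col1a1 at 671 ± 9.62 in control (SD, n = 3), all far above the cadherins and claudins. The transcription factor genes known as repressors of Cdh1 were all present in control: Snai1 at 33.9 ± 1.68, Snai2 at 40.5 ± 1.21, Twist1 at 58.2 ± 3.61, Zeb1 at 11.2 ± 0.824 and Zeb2 at 12.6 ± 1.03. Of the 13 mesenchymal markers that passed, 7 (53.8%) had groups that did not overlap, beside 25.6% of all genes tested. In VC 6 of them were lower and 1, Pdgfrb, was higher (2.14 ± 0.171 in control and 3.19 ± 0.293 in VC, log2 fold change 0.41, limma adjusted p = 0.146). Snai2 was at 34.1 ± 1.43 in VC, with every VC library below every control library (log2 fold change -0.24, limma adjusted p = 0.0756). Twist1 was at 51.4 ± 2.73 in VC, likewise below (-0.17, adjusted p = 0.22). The groups overlapped for Snai1 at 33.2 ± 1.87 (adjusted p = 0.814), Zeb1 (adjusted p = 0.94) and Zeb2 at 12.9 ± 0.516 (adjusted p = 0.84). Cdh1 stayed at 0.16 or less in every library of both groups. Whether these repressors have a part in the level of Cdh1 in TM4 cells was not tested.

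Of the Sertoli markers that passed the filter, the inhibin subunit gene Inhbb and the transcription factor gene Gata4 were each higher in every VC library than in every control library. The mean of Inhbb was 156 ± 4.03 among controls and 177 ± 3.28 among VC libraries (adjusted p = 0.0747 by limma). For Gata4 the means were 19.2 ± 0.631 and 21.8 ± 0.442 (adjusted p = 0.139).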
